A study of Danio rerio with 10 samples.

Results

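The circadian clock genes of whole zebrafish larvae are described here in aldh2.1-/- and aldh2.1+/+ larvae. The genes were per1a, per1b, per2, per3, nr1d1, nr1d2a, nr1d2b, bhlhe41, ciarta and bmal1a. They were picked by symbol with no rule on their values, but with earlier results of these data known. Symbols were matched to Ensembl identifiers ignoring case, and a symbol without its copy letter also counted, so that 10 symbols gave 11 of the 32520 genes in the files. The name table lists both per1 copies as PER1, both bmal1 copies as BMAL1 and the second nr1d2 copy as NR1D2. Copies that share a symbol are therefore given with their identifier, and which of them is the a or the b copy is not stated here.

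RNA-seq was done on 10 libraries, 5 from aldh2.1-/- clutches and 5 from aldh2.1+/+ clutches, and each library came from 50 pooled larvae of 1 clutch at 120 hours post fertilization (hpf). Both genotypes were in the Tg(fli1:EGFP) line, in which a promoter active in endothelial cells drives a green fluorescent protein, and both were raised untreated in egg water at 28.5 °C. Mutants carried a frame-shifting deletion in aldh2.1, the gene of an acetaldehyde-detoxifying enzyme, made with CRISPR/Cas9. The labels number the clutches of each genotype 1, 2, 3, 5 and 6. The clock time of collection and the larval lighting are not given in the sources used here, and with a single age a difference in clock phase and a difference in level cannot be told apart. RNA was taken from whole larvae, in which fewer cells of a type and less RNA per cell cannot be told apart either.

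The vertebrate clock is a transcriptional feedback loop. Clock and Bmal proteins form a dimer that binds E-box elements and activates per, cry, nr1d, bhlhe and ciart genes. Per and Cry proteins repress the dimer, the nr1d products (Rev-erb receptors) repress bmal transcription, and Ror receptors activate it, so that bmal and nr1d1 transcripts peak at different times of day. Zebrafish tissues hold clocks that are set directly by light, and per2 is a gene whose transcription light induces. Levels of these genes at 1 time point therefore carry information on the phase at which a sample was taken, and the first question was how far the clutches differed in them.

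Libraries held between 19792930 and 20703518 estimated counts. The targeted gene, listed as ALDH2, had 4.49 ± 1.75 CPM (a count scaled by the total of its library) in mutants (SD, n = 5 clutches) and 10.8 ± 0.97 CPM in wildtypes, and the genotypes did not overlap (2.75 to 7.35 CPM against 10.2 to 12.5 CPM). Its log2 fold change was -1.27 with a standard error (SE) of 0.21 and an adjusted p of 0.134 in the edgeR quasi-likelihood test, which was 2.24e-05 with DESeq2 and 0.00688 without aldh2.1-/- clutch 2. CPM values were scaled with the TMM method, and adjusted p-values are Benjamini-Hochberg values over the 21532 genes that passed the expression filter, with a threshold of 0.05. All 11 clock genes passed that filter. Nothing in the labels says whether clutches came from separate parents, so p-values measure only the spread between these clutches, which may in part be technical. Members of every tissue marker list examined (photoreceptor, skeletal muscle, liver, exocrine pancreas, intestine, neuron, epidermis and erythrocyte) were detected.

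Per length of transcript, the Rev-erb genes were the most abundant of the 11 and per2 the least. In TPM, which also divides by transcript length, the mean over the 10 libraries was 106 for nr1d1, 80.5 for nr1d2, 51.3 for nr1d2a, 41.0 for ciarta, 30.4 for per1 ENSDARG00000012499 and 25.3 for bhlhe41. It was 17.8 TPM for per3, 13.4 TPM for per1 ENSDARG00000056885, 10.7 TPM for bmal1 ENSDARG00000035732, 8.82 TPM for bmal1 ENSDARG00000006791 and 3.73 TPM for per2. Each neighbouring pair kept this order in 9 or 10 of the 10 libraries. Ranges over libraries did not overlap between nr1d2 and nr1d2a, between ciarta and per1 ENSDARG00000012499, and between bmal1 ENSDARG00000006791 and per2, and they overlapped for the other neighbours.

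In every library the TPM of nr1d1 and the summed TPM of the per1 copies exceeded the summed TPM of the bmal1 copies. The TPM of nr1d1 was between 4.21 and 7.61 times the summed TPM of the bmal1 copies (median 5.41), with the lowest ratio in aldh2.1-/- clutch 3 and the highest in aldh2.1-/- clutch 5. The summed per1 copies stood at 1.84 to 2.57 times the summed bmal1 copies. For per3 the ratio to summed bmal1 was 0.684 to 1.201, and the ratio of nr1d1 to per2 ran from 21.5 to 48.0.

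Period genes encode the repressors that bind Cry proteins. For per1 ENSDARG00000012499, wildtype clutches 1, 2, 3, 5 and 6 had 191, 194, 187, 172 and 189 CPM, and mutant clutches in the same order had 185, 159, 168, 219 and 214 CPM. Mutant clutches 5 and 6 lay above all wildtypes and mutant clutches 2 and 3 below all of them, so that the means were close, at 189 ± 26.8 CPM in mutants and 187 ± 8.60 CPM in wildtypes (log2 fold change 0.02, SE 0.09, edgeR adjusted p = 0.984). The other copy, per1 ENSDARG00000056885, had 73.4, 81.6, 70.7, 59.5 and 71.6 CPM in wildtypes and 65.3, 54.4, 68.5, 97.3 and 83.2 CPM in mutants. Mutant clutches 5 and 6 again held the highest values and mutant clutch 2 the lowest, and the log2 fold change was 0.05 (SE 0.14, edgeR adjusted p = 0.969).

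The light-induced gene per2 had 20.8, 21.8, 18.6, 18.6 and 17.4 CPM in wildtype clutches 1, 2, 3, 5 and 6 and 17.5, 18.2, 15.4, 15.8 and 14.1 CPM in the mutant ones. All 5 mutants lay below the wildtype median, yet the genotypes overlapped, since wildtype clutch 6 was below mutant clutches 1 and 2. The mean was 16.2 ± 1.67 CPM in mutants and 19.5 ± 1.80 CPM in wildtypes, a log2 fold change of -0.26 (SE 0.10) with an unadjusted p of 0.0162 and an adjusted p of 0.921 in edgeR, and a two-sided exact permutation p of 0.0238 for this gene alone. For per3, which encodes the third Period protein, wildtypes had 185, 219.5, 202, 165 and 181 CPM and mutants 142, 130.2, 179, 189.7 and 173 CPM. Mutant clutches 1 and 2 were the lowest, 4 of 5 mutants lay below the wildtype median, and the log2 fold change was -0.23 (SE 0.11, edgeR unadjusted p = 0.0607, adjusted p = 0.921).

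Rev-erb genes encode receptors that repress bmal transcription. The nr1d1 values were 246, 288, 217, 237 and 296 CPM in wildtype clutches 1, 2, 3, 5 and 6 and 253, 258, 214, 408 and 329.5 CPM in mutant ones. Mutant clutches 5 and 6 stood above every wildtype and mutant clutch 3 below every wildtype. Means were 293 ± 76.7 CPM in mutants and 257 ± 34.3 CPM in wildtypes, and the log2 fold change of 0.19 (SE 0.16) had an edgeR adjusted p of 0.923 and was 0.040 without mutant clutch 5. Its paralog nr1d2a had 127, 149.7, 149.6, 164 and 183 CPM in wildtypes and 179, 177, 138, 244 and 233 CPM in mutants. Again mutant clutches 5 and 6 were the highest, and 4 of 5 mutants lay above the wildtype median. The log2 fold change of nr1d2a was 0.33 (SE 0.15) with an unadjusted p of 0.0440 and an adjusted p of 0.921 in edgeR, and the exact permutation p was 0.119. The copy listed as nr1d2 had 229, 259.65, 241, 235 and 231 CPM in wildtypes and 201, 214, 203, 272 and 260.45 CPM in mutants. Mutant clutches 1, 2 and 3 lay below every wildtype and mutant clutches 5 and 6 above every wildtype, around nearly equal means of 230.3 ± 33.6 and 239 ± 12.3 CPM (log2 fold change -0.05, SE 0.09, edgeR adjusted p = 0.945).

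Both bhlhe41 (Dec2) and ciarta (Chrono) encode repressors of E-box transcription. For bhlhe41, wildtype clutches had 78.9, 94.9, 73.7, 56.5 and 64.3 CPM and mutant clutches 46.8, 57.01, 59.3, 94.6 and 81.8 CPM. The highest values belonged to wildtype clutch 2 and mutant clutch 5, the lowest to mutant clutch 1, and the log2 fold change was -0.12 (SE 0.19, edgeR adjusted p = 0.942), or -0.27 to -0.010 with 1 library left out. For ciarta, the wildtypes lay close together at 83.0, 91.8, 92.3, 82.9 and 93.0 CPM, and the mutants had 83.8, 91.1, 77.8, 128.5 and 123 CPM. Only mutant clutches 5 and 6 left the wildtype range upwards, and the log2 fold change was 0.19 (SE 0.13, edgeR adjusted p = 0.921), or 0.084 without mutant clutch 5 and 0.10 without mutant clutch 6.

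The bmal1 genes encode the activator that pairs with Clock. In bmal1 ENSDARG00000006791 the wildtypes had 15.2, 17.2, 17.4, 20.2 and 17.8 CPM and the mutants 16.1, 17.3, 16.7, 19.4 and 20.4 CPM. In bmal1 ENSDARG00000035732 the wildtypes had 14.1, 14.6, 14.8, 16.8 and 17.8 CPM and the mutants 17.5, 15.3, 17.6, 15.4 and 15.2 CPM. The genotypes overlapped in both, although all 5 mutants lay above the wildtype median of ENSDARG00000035732, and the highest and lowest values of each copy were at most 1.34-fold apart. Log2 fold changes were 0.03 (SE 0.10) and 0.05 (SE 0.09), with edgeR adjusted p-values of 0.967 and 0.946.

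**Figure D1:**
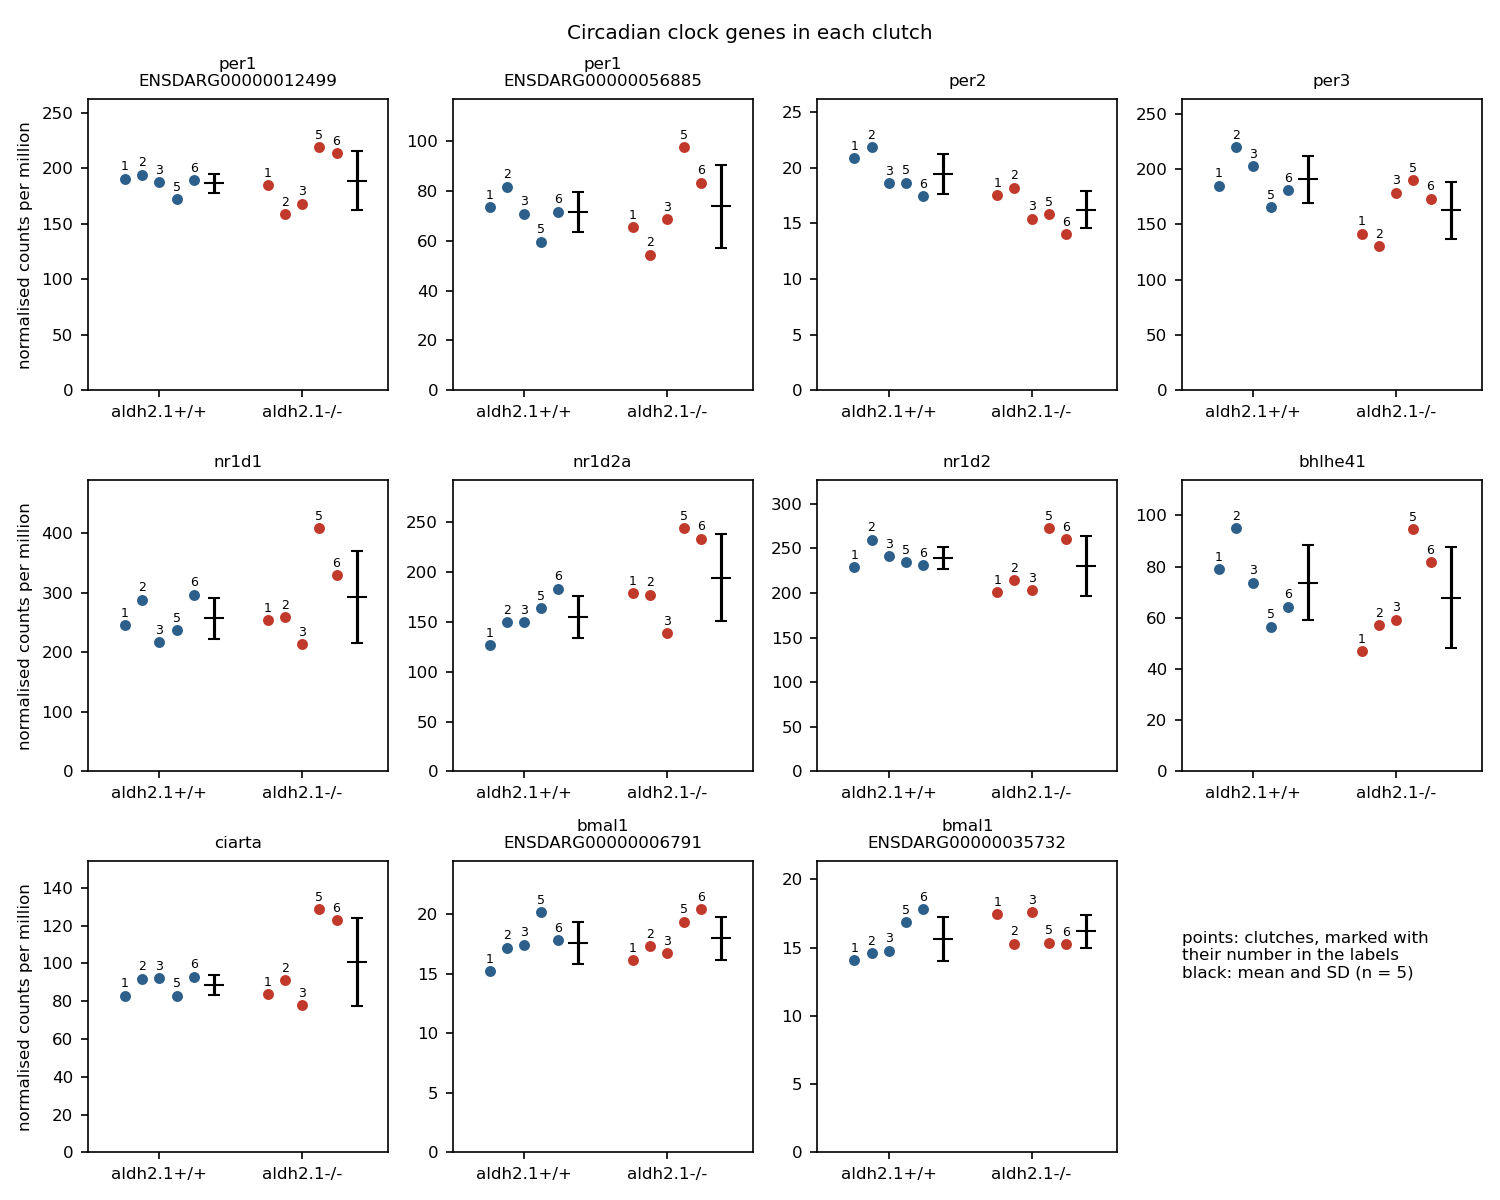
Normalised CPM of the 11 clock genes in each clutch, 1 panel per gene, with aldh2.1+/+ clutches in blue and aldh2.1-/- clutches in red, the clutch number above each point, and the mean and SD of 5 clutches in black. Mutant clutches 5 and 6 lie above the other mutants for both per1 copies and for nr1d1, nr1d2a, nr1d2, bhlhe41, ciarta and bmal1 ENSDARG00000006791. Every panel shows overlapping genotypes.

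In the comparison of genotypes, 0 of 11 clock genes were called at the adjusted threshold, against 0.00929% of all genes tested (2 of 21532). DESeq2 and limma on log2(TPM + 1) likewise called 0 of 11. At an unadjusted p under 0.05 edgeR had 2 of 11, against 5.04% of all genes. Of these, per2 was lower in mutants, which was so of 2.21% of all genes, and nr1d2a was higher, against 2.83% of all genes. DESeq2 had 2 of 11 at the unadjusted threshold, against 5.31% of all genes, and limma on log2(TPM + 1) 1 of 11, against 4.12%. The genotypes did not overlap for 0 of 11 clock genes, against 0.725% of all genes. With 5 against 5 clutches the exact test cannot give a p under 0.00794. The median log2 fold change of the 11 genes was 0.03, beside 0.01 for all genes tested. For per2 the log2 fold change stayed between -0.31 and -0.17 over 17 alternative settings, and for nr1d2a between 0.24 and 0.43, and no setting gave either an adjusted p under the threshold. The unadjusted p stayed under 0.05 in 15 of 17 settings for per2 and in 11 of 17 for nr1d2a. For per2 the exceptions were the settings on TPM, with unadjusted limma p-values of 0.143 on log2(TPM + 1) and 0.141 on log2(TPM + 0.1). For nr1d2a the unadjusted edgeR p was 0.119 without mutant clutch 5 and 0.117 without mutant clutch 6.

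**Figure D2:**
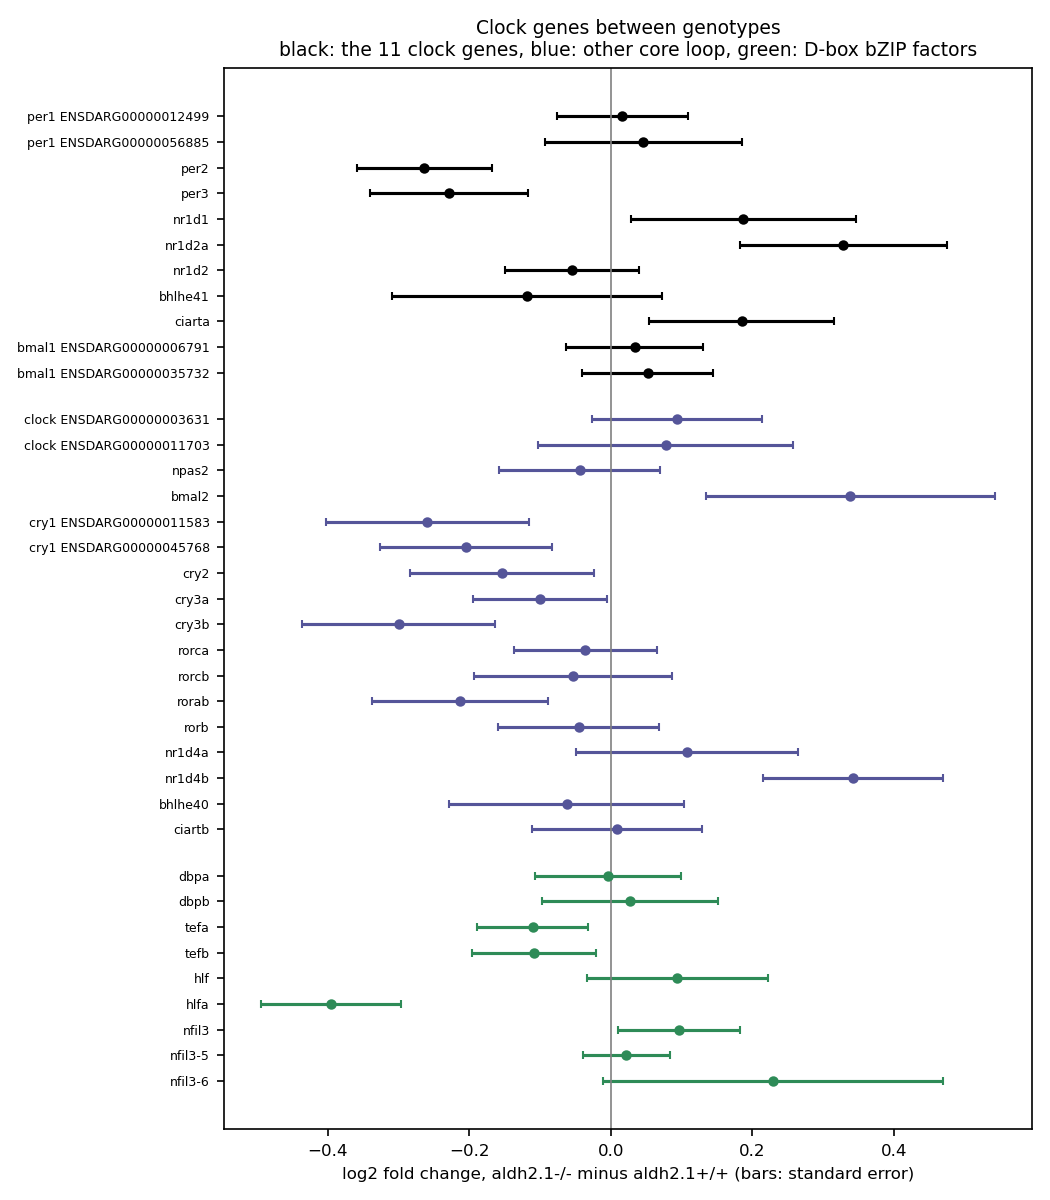
Log2 fold changes from the edgeR fit, aldh2.1-/- minus aldh2.1+/+, with bars of 1 standard error, for the 11 clock genes (black), 17 other genes of the core loop (blue) and 9 D-box bZIP factors (green). The 11 clock genes run from -0.26 for per2 to 0.33 for nr1d2a, and hlfa has the lowest value of the genes drawn, at -0.39.

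Clutches differed in several of these genes by more than they did in the typical gene. Between the lowest and the highest of the 10 libraries, bhlhe41 changed 2.03-fold (from 46.8 to 94.9 CPM), nr1d2a 1.92-fold and nr1d1 1.91-fold, and bmal1 ENSDARG00000035732 had the smallest range, 1.26-fold. The median of the 11 genes was 1.65-fold, beside a median of 1.41-fold over the 10461 tested genes with a mean of at least 10 CPM. The SD of log2 CPM within genotypes was 0.35 for bhlhe41, larger than in 93.0% of those genes. It was 0.29 for nr1d1 (larger than in 88.0%), 0.27 for nr1d2a (85.6%), 0.26 for per1 ENSDARG00000056885 (83.2%) and 0.24 for ciarta (80.1%). The activators bmal1 ENSDARG00000006791 and ENSDARG00000035732 had SDs of 0.14 and 0.13, larger than in 45.1% and 35.5% of genes. For per3 the SD was larger than in 69.9% of genes, for nr1d2 in 51.4%, for per1 ENSDARG00000012499 in 50.2% and for per2 in 42.8%. In all, 8 of 11 clock genes were above the median SD of 0.15, but nr1d2 and per1 ENSDARG00000012499 only just.

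The SD was larger in mutants than in wildtypes for 9 of 11 clock genes, which is close to the 78.6% found over all genes of at least 10 CPM, whose median SD was 0.18 in mutants and 0.11 in wildtypes. The gap was wide for ciarta, with an SD of 0.33 in mutants and 0.09 in wildtypes, and for nr1d2, with 0.21 and 0.07. The exceptions were the bmal1 copies, with 0.143 in mutants and 0.145 in wildtypes for ENSDARG00000006791, and 0.11 and 0.15 for ENSDARG00000035732. Mutant clutch 5 was the highest library for 6 of 11 clock genes, and it was the highest for 17.6% of all genes of that level. Wildtype clutch 2 was the highest for 3 of 11 (per2, per3 and bhlhe41), against 6.47% of genes. The lowest library was mutant clutch 2 for 3 of 11 (both per1 copies and per3), against 7.93% of genes, and wildtype clutch 1 for another 3 of 11 (nr1d2a and both bmal1 copies), against 5.32% of genes. Mutant clutch 1 was the lowest for 33.4% of genes but for 2 of 11 clock genes (nr1d2 and bhlhe41). It was the highest for 17.35% of genes and for 0 of 11 clock genes.

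**Figure D3:**
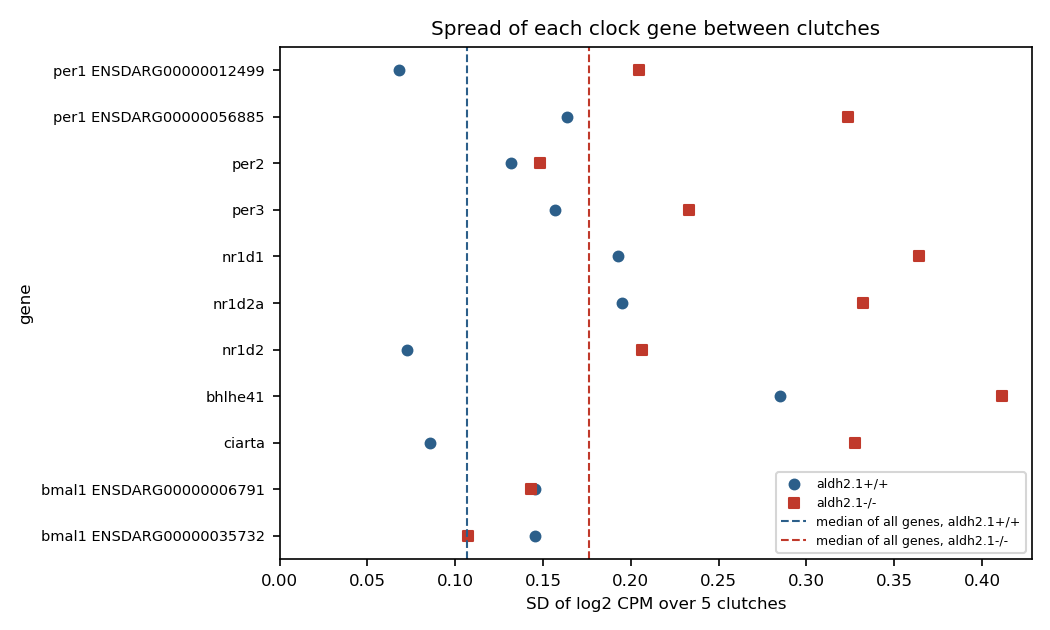
Standard deviation of log2 CPM over 5 clutches for each clock gene, with aldh2.1+/+ as circles and aldh2.1-/- as squares, and dashed lines at the medians of all genes of at least 10 CPM (0.11 and 0.18). The squares lie to the right of the circles for 9 of 11 genes, and the bmal1 copies are the exceptions.

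To see whether the clock genes moved together from clutch to clutch, their log2 CPM values were correlated over the 10 libraries in 55 pairs, with p-values from 100000 permutations adjusted over the 55 pairs. Of the 55 pairs, 39 had a positive r and 12 passed the threshold, all 12 positive. The smallest called r was 0.758. As a description of these libraries, 21.8% of clock gene pairs reached that absolute value, beside 4.35% of all pairs of tested genes. The tested genes include many under 10 CPM, unlike the clock genes, and the share among genes of at least 10 CPM was not computed. The 12 pairs joined the per1 copies, per3, nr1d1, nr1d2a, nr1d2, bhlhe41 and ciarta, and per2 and the bmal1 copies were in none of them.

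The strongest pair was that of the per1 copies, with Pearson's r = 0.93 (permutation p = 0.00034, adjusted p = 0.0187) and Spearman's rho = 0.96 (permutation p = 7.0e-05, adjusted p = 0.00385). Both copies were highest in mutant clutch 5 and lowest in mutant clutch 2, and without these libraries, the farthest from the median, r was 0.82. For nr1d1 and ciarta r was 0.88 (permutation p = 0.00091, adjusted p = 0.0200) and rho 0.82 (permutation p = 0.00584, adjusted p = 0.0642). For nr1d2 and bhlhe41 r was also 0.88 (permutation p = 0.00109, adjusted p = 0.0200) and rho 0.78 (permutation p = 0.0111, adjusted p = 0.0763). The rank correlation thus passed for the first of these pairs and missed the threshold for the other ones. Over all 55 pairs, Spearman's rho passed for 2, the per1 copies and per1 ENSDARG00000056885 with bhlhe41 (r = 0.83, permutation p = 0.00318, adjusted p = 0.0292, and rho = 0.90, permutation p = 0.00088, adjusted p = 0.0242).

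The 2 libraries farthest from the median of the first gene of a pair were then left out. For the pairs of nr1d1, nr1d2a and ciarta these were mutant clutches 5 and 6, on which those relations rested, since r fell from 0.88 to 0.58 for nr1d1 and ciarta, from 0.83 to 0.48 for nr1d1 and nr1d2a, and from 0.87 to 0.44 for nr1d2a and ciarta. For the other 9 called pairs the libraries left out depended on the first gene. They were mutant clutches 2 and 5 for the per1 copies, mutant clutches 1 and 5 for nr1d2, and mutant clutches 1 and 2 for per3. In these 9 pairs r was at least 0.6 without them. Mutant clutch 6 stayed in, so this does not show how the pairs stand without both mutant clutches 5 and 6. The number of called pairs was 0 without mutant clutch 5, 1 without mutant clutch 6, 1 without wildtype clutch 6 and 3 without mutant clutch 3. The single pair left without mutant clutch 6 or wildtype clutch 6 was that of the per1 copies. Of the 3 pairs without mutant clutch 3, 2 were among the 12, and the third was a negative one that was not, per2 with nr1d2a (r = -0.90, adjusted permutation p = 0.0414). Taken as deviations from the genotype means, r was 0.93 for the per1 copies, 0.87 for nr1d1 and ciarta and 0.87 for nr1d2 and bhlhe41. Permutations within the genotypes called 0 of 55 pairs (smallest adjusted p = 0.0567). In each genotype alone (n = 5), the per1 copies had r = 0.93 in mutants and 0.97 in wildtypes. It was 0.96 in mutants but 0.39 in wildtypes for nr1d1 and ciarta, and 0.96 and 0.69 for nr1d2 and bhlhe41. For per1 ENSDARG00000012499 and nr1d2 it was 0.86 and 0.38, so that not every called pair was close in wildtypes.

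With all 10 libraries, no pair of a repressor gene and a bmal1 copy was called, in either direction. The highest r of such pairs joined bmal1 ENSDARG00000006791 with nr1d2a (0.71, adjusted permutation p = 0.0729) and with ciarta (0.64, adjusted permutation p = 0.125). Without wildtype clutch 5 both of these pairs were called, with r = 0.85 and 0.89 (adjusted permutation p = 0.0314 for both). Over the 10 libraries nr1d1 had r = 0.49 with bmal1 ENSDARG00000006791 (adjusted permutation p = 0.264) and r = -0.17 with bmal1 ENSDARG00000035732 (adjusted permutation p = 0.736). Within genotypes (n = 5), some pairs had opposite signs. For nr1d1 with bmal1 ENSDARG00000035732 r was -0.72 in mutants and 0.34 in wildtypes. For bhlhe41 with bmal1 ENSDARG00000006791 it was 0.91 and -0.68, but for nr1d2a with that copy 0.83 and 0.72. The difference between genotypes was not tested. The lowest r of all pairs was -0.71, between bhlhe41 and bmal1 ENSDARG00000035732 (adjusted permutation p = 0.0809). The second lowest, -0.66, joined per2 and nr1d2a.

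**Figure D4:**
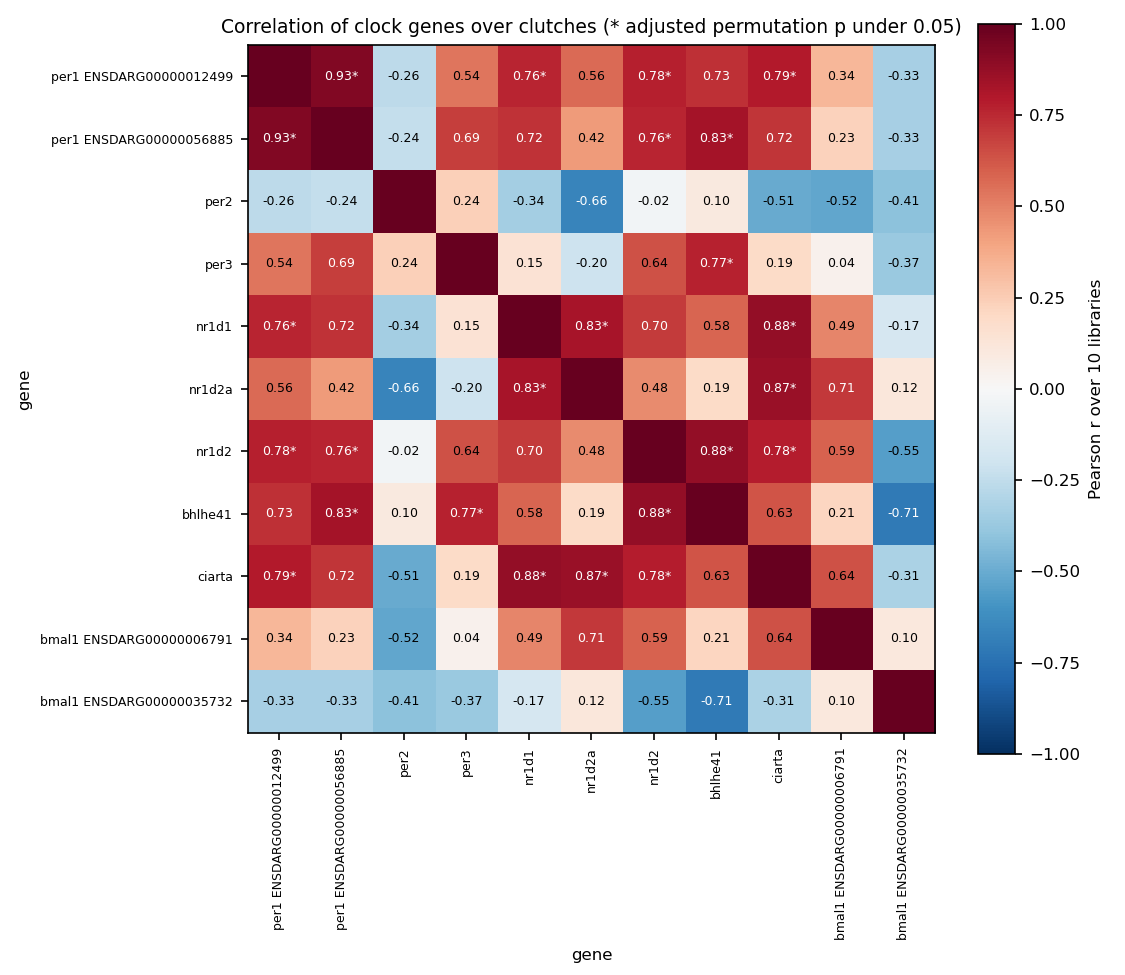
Pearson's r of log2 CPM over the 10 libraries for each pair of clock genes, from -1 (blue) to 1 (red), with a star where the permutation p adjusted over 55 pairs was under 0.05. The 12 starred pairs join per1, per3, nr1d1, nr1d2a, nr1d2, bhlhe41 and ciarta, and no star lies in the rows of per2 or the bmal1 copies.

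Other measures moved with some of these genes over the libraries. The log2 total count had r from -0.81 with nr1d2 to 0.39 with per2, with -0.79 for per1 ENSDARG00000012499, -0.76 for bhlhe41, -0.73 for ciarta and -0.63 for nr1d1, although the totals ran only from 19792930 to 20703518, and mutant clutches 5 and 6 had the lowest totals. The TMM factors ran from 0.949 in mutant clutch 5 to 1.08 in mutant clutch 1, and with library size alone 5 of 55 pairs were called. The summed level of the 8 photoreceptor markers, 0 of them at zero, was 6804 to 15633 CPM in mutants and 10894 to 12524 CPM in wildtypes. It had its highest r with nr1d2 (0.79) and bhlhe41 (0.73), and lower ones with nr1d1 (0.42), per2 (0.19) and nr1d2a (0.16). The 6 neuron markers, 0 of them at zero, summed to 1751 to 2484 CPM in mutants and 2096 to 2262 CPM in wildtypes. This sum had its highest r with nr1d2 (0.73) and bhlhe41 (0.72), and lower ones with nr1d2a (0.37) and per2 (-0.30). The 10 pineal and melatonin genes that could be tested summed to 505 to 949.9 CPM in mutants and 704 to 952 CPM in wildtypes, with r = 0.62 with nr1d2 and 0.28 with nr1d1. Most of that sum was crx ENSDARG00000011989 (366 to 720 CPM) and crx ENSDARG00000043483 (111 to 195 CPM), whereas ASMT reached at most 17.1 CPM. The sum and its r values therefore describe mainly the crx genes and not melatonin synthesis. Sums of other tissue markers moved with other clock genes. For bmal1 ENSDARG00000006791 r was -0.72 with intestine, -0.70 with liver and -0.66 with exocrine pancreas. For per2 it was 0.62 with liver and 0.61 with intestine, and for per3 -0.65 with erythrocyte. These sums held few genes: 3 for intestine, 4 for liver, 3 for exocrine pancreas and 2 for erythrocyte. The erythrocyte sum was only 20.3 to 39.65 CPM in mutants and 18.4 to 29.9 CPM in wildtypes. These r values are descriptions over 10 libraries, and the part of depth and of these tissues in the clock gene values was not tested.

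**Figure D5:**
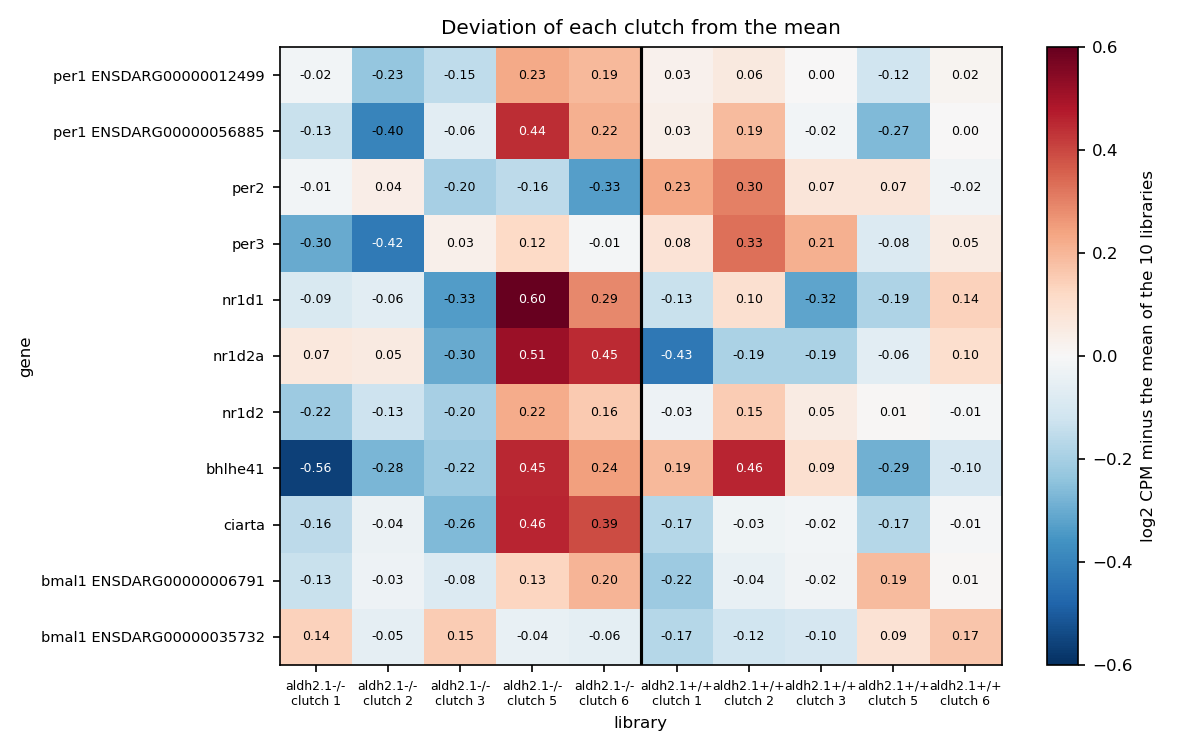
Log2 CPM of each clock gene in each library minus the mean of the 10 libraries, with the value in each cell, red above and blue below the mean, and a line between the genotypes. Mutant clutch 5 is red for 9 of 11 genes, up to 0.60 for nr1d1. Mutant clutches 1 to 3 and wildtype clutches 1, 3 and 5 are below the mean in most rows.

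The genes whose log2 CPM followed the clock genes most closely were searched among 13444 named genes with a mean of at least 5 CPM, and since they were chosen for their r, no test is given. For nr1d1 they were ets2, an Ets-family transcription factor (r = 0.93), tsc22d3, a gene induced by glucocorticoids (0.93), and si:ch211-195b13.1 (0.92). For per1 ENSDARG00000012499 they were si:ch211-165d12.4 (0.95), CCDC12 (0.92) and S100B, a calcium-binding protein of glia (0.89), and for per1 ENSDARG00000056885 again si:ch211-165d12.4 (0.93) with LRTM1 (0.93) and zgc:152938 (0.93). For per2 they were PCOLCE2, an enhancer of procollagen processing (0.92), si:ch73-367f21.4 (0.91) and CUL4A, a ubiquitin ligase scaffold (0.89). The bmal1 copies had different lists. Among the closest to bmal1 ENSDARG00000006791 were CACNG5 and nat14 (0.91 each), and closest to bmal1 ENSDARG00000035732 were MED12, a subunit of Mediator (0.97), EFNA3 (0.94) and zfhx3a (0.93). Of these 6 clock genes, only the per1 copies shared a gene among their closest ones. The other glucocorticoid response genes examined below followed nr1d1 less closely than tsc22d3 did, with r from -0.10 for KLF9 to 0.42 for FKBP5.

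Clock-related genes were examined in 6 further lists, which also hold light-responsive, pineal and glucocorticoid response genes from outside the core loop. Here edgeR called 0 of 57 tested genes at the adjusted threshold and 5 of 57 at an unadjusted p under 0.05, against 5.04% of all genes. DESeq2 had 0 and 7 of 57, against 5.31% of all genes at the unadjusted threshold. Without mutant clutch 5 the 5 became 12, when 12.2% of all genes passed, and without mutant clutch 6 they became 9, when 6.82% did. Among 17 other genes of the core loop, which hold the clock, npas2, bmal2, cry, ror and nr1d4 genes with BHLHE40 and ciartb, 6 were higher and 11 lower in mutants, and their median log2 fold change was -0.05. Of these, nr1d4b, a Rev-erb gene of fish, had 35.5 ± 5.27 CPM in mutants and 28.0 ± 4.80 CPM in wildtypes (log2 fold change 0.34, edgeR unadjusted p = 0.0186, adjusted p = 0.921). The cryptochrome gene cry3b had 10.1 ± 1.41 and 12.4 ± 2.07 CPM (log2 fold change -0.30, edgeR unadjusted p = 0.0468, adjusted p = 0.921). Among 9 D-box bZIP factors, output regulators under clock control, 5 were higher and 4 lower in mutants, and their median log2 fold change was 0.02. Of the 9, hlfa had 127, 129, 129.8, 163 and 125 CPM in mutant clutches 1, 2, 3, 5 and 6. Wildtype clutches in the same order had 161, 190.4, 169, 209 and 157 CPM of hlfa. The genotypes overlapped only through mutant clutch 5, and the log2 fold change was -0.39 (SE 0.10, edgeR unadjusted p = 0.00158, adjusted p = 0.900, and 0.0545 to 1.00 over the alternatives).

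Among 8 kinases and ubiquitin ligases of the clock, 3 were higher and 5 lower in mutants, and their median log2 fold change was -0.02. Of the 8, 1 passed the unadjusted threshold, in the higher direction, against 2.83% of all genes. Among 7 light-responsive and photolyase genes, 2 were higher and 5 lower in mutants, and their median log2 fold change was -0.04. Of the 7, DDB2, a DNA damage recognition factor, had 3.94 ± 0.48 CPM in mutants and 5.36 ± 0.70 CPM in wildtypes (log2 fold change -0.44, edgeR unadjusted p = 0.00751, adjusted p = 0.921). Its genotypes did not overlap, which was so of 0.725% of all genes. No gene of the other 2 lists passed the unadjusted threshold. The pineal genes with the smallest p were ASMT and asmt2, which encode the last enzyme of melatonin synthesis, with log2 fold changes of -0.34 and 0.25 (edgeR adjusted p = 0.921 for both). Of the glucocorticoid response genes, KLF9 had a log2 fold change of 0.57 and FKBP5 of 0.31 (edgeR adjusted p = 0.921 for both). They were 0.37 for KLF9 without mutant clutch 1 and 0.17 for FKBP5 without mutant clutch 6. That of ASMT ran from -0.48 to -0.22 and that of asmt2 from 0.16 to 0.32 with 1 library left out.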

How the data were processed

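Whole larvae at 120 hpf were sequenced on a BGISEQ platform. Per the submitters' processing notes, tools were Trim Galore 0.6.4 and kallisto 0.4.6 with GRCz11, and the annotation version is not given in the sources used here. The authors deposited estimated counts per gene (expected counts, not normalised) and TPM values per library. Counts of nr1d1 and bmal1 ENSDARG00000035732 were whole (within 0.01) in 0 of 10 libraries and those of per1 ENSDARG00000012499 and per3 in 1 of 10, which an estimator gives where reads fit transcripts of more than 1 gene. The counts were rounded and tested with edgeR 4.0.16 under R 4.3.3 (TMM, filterByExpr, robust quasi-likelihood fit, no block), with DESeq2 1.42.0 and limma 3.58.1 as alternatives. On simulated data edgeR recovered 85 of 88 genes changed 1 log2 unit among 21338, with 6 false calls. Changes as small as those of the clock genes (-0.26 to 0.33) were not simulated, so this recovery does not apply to them. Log2 CPM had a prior count of 2. A symbol was found for 29201 of the 32520 genes. The members and lists were chosen with earlier results of these data known. All members are named, and of each other list the genes with an unadjusted p under 0.05 or else the 2 with the smallest p, except that tissue marker lists are described by their sums. Of the genes this rule and the likeness search name, 2 are not reported here. Every pair of libraries of 1 genotype differed beyond sampling noise (lowest chi-square over its degrees of freedom 7.12), and none was treated as a repeat. No coordinates or sequences are given, since no genome of the files' build was used.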

Additional observations from a re-analysis of the deposited data

How the results depend on the processing

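The count of called clock genes stayed at 0 of 11 and that of the further clock-related genes at 0 under all 17 alternatives: library size alone, DESeq2, filters of at least 1 count in any library or 10 counts in every library, a replicate block, limma on log2(TPM + 1) or with 0.1 as the pseudocount, and leaving out each library. The log2 fold change of nr1d2 changed sign with limma, to 0.038 at both pseudocounts. When libraries were left out in turn it ran from -0.040 to 0.073 for per1 ENSDARG00000012499, from -0.072 to 0.14 for per1 ENSDARG00000056885 and from -0.017 to 0.089 for bmal1 ENSDARG00000006791, so that their directions were not stable. The 12 called pairs became 5 with library size alone, 5 with log2(TPM + 1), 0 as deviations from the genotype means, 2 with Spearman's rho, and 0 to 11 when libraries were left out in turn (not always a subset of the 12), and they stayed 12 with a prior count of 0.5. The cause of these changes was not tested. Over all genes, 2 calls became 22 with DESeq2, 4 with at least 1 count in any library, 1 with the replicate block, and 48 without aldh2.1-/- clutch 5. Clutches of the same number were not clearly alike: their correlation over all genes ran from -0.13 to 0.11, and 1 of 5 mutants correlated best with its own number. With 5 numbers this cannot decide whether equal numbers share a batch or a collection. The replicate block called 0 clock genes and 0 pairs. Deviations from the mean cannot show clock phase without a collection time, and with 5 clutches of each genotype the spread between clutches limits the precision.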
